A study of Mus musculus with 24 samples.

Results

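Th, Dbh, Ddc, Slc6a2, Slc18a2, Phox2a, Hand2, Chga and Prph are 9 genes that mark sympathetic noradrenergic neurons, and they were read here in the carotid arteries of female mice. They are 9 of the 55421 genes in the deposited tables and were matched by Ensembl identifier and symbol. They were selected on their counts, which were very low in a vehicle library and in a tamoxifen library, OVX C5 and TAM C35, and those low values are given as a description that supports nothing further. All 9 had enough counts to be tested for the effect of treatment.

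The arteries were uninjured and came from C57BL/6 mice aged 9 weeks according to the labels. The series text gives 3 weeks of treatment and the study's methods a shorter one. OVX is the vehicle group, ovariectomized mice with a placebo pellet; E2 is the group given estradiol; E4 is the group given estetrol, an estrogen made by the human fetal liver; TAM is the group given tamoxifen, a selective modulator of estrogen receptors. The study describes ovariectomy before treatment for the OVX, E2 and E4 mice, whereas its text and labels give no surgery for the TAM mice. The treatment field of the E4 samples reads Placebo, so these samples were assigned from their titles. Each group holds 6 libraries with an animal number each, for 24 in all.

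Sympathetic postganglionic neurons release noradrenaline onto blood vessels, where it contracts smooth muscle. Tyrosine is hydroxylated by Th to L-DOPA, decarboxylated by Ddc to dopamine, loaded into vesicles by Slc18a2 and converted there by Dbh to noradrenaline, which Slc6a2 takes back up after release. The cell bodies of the neurons that supply the head and neck lie in the superior cervical ganglion, beside the carotid bifurcation, and most of their messenger RNA is in those cell bodies. In a bulk library, fewer cells of a type and less RNA per cell cannot be told apart.

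The promoters of Th and Dbh are shown because their genes encode the first and last enzymes of noradrenaline synthesis and had the largest drop in OVX C5 among the 9 genes. The 250 bases before the start of each gene come from RefSeq on GRCm38.p6, written 5′ to 3′ on the gene's strand. These RefSeq starts differ from the outermost GENCODE starts, so that both stretches lie within the GENCODE gene spans given with each gene. The Th stretch is chr7:142899996-142900245 on the minus strand, with the cAMP response element TGACGTCA in capitals. The Dbh stretch is chr2:27165257-27165506 on the plus strand, with 3 copies of the homeodomain core ATTA in capitals, of which the other strand reads TAAT.
Th: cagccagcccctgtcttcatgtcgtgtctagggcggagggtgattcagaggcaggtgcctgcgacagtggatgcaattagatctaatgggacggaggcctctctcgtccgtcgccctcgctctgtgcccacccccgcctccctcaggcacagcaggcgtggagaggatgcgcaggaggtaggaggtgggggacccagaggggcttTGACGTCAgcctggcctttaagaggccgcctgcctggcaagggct
Dbh: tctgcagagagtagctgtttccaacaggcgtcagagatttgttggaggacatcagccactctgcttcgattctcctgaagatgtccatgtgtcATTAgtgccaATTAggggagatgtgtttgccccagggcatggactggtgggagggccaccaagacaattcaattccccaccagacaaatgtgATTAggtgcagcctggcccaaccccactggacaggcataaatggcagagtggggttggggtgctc
In windows from 250 bases before to 50 bases after each start, TGACGTCA was found in 1.79% of 32851 mouse promoters and, of the 9 genes, in those of Th and Slc18a2. RefSeq windows were matched for 8 of the 9 genes, with 2 windows for Ddc and none for Slc6a2, giving 9 windows. ATTA or TAAT was present in 7 of these 9 windows, against 58% of all promoters, and the longer TAATNNNATTA in 0 of 9, against 0.487%. The estrogen response element GGTCANNNTGACC was present in 0 of 9, against 0.07%, and its core GGTCA, with TGACC on the other strand, in 2 of 9, those of Ddc and Slc18a2, against 40.5%. CANNTG, the E-box letters read by bHLH factors such as Hand2, was present in 6 of 9, against 72.3%. A match in these windows describes letters and was not set against any binding data.

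Library totals ran from 24647246 to 64221401 counts, with a median of 45156107. The 60 pairs of libraries within groups all differed by more than sampling noise. OVX C5 and TAM C35 stood apart before any comparison between groups. Of 19474 genes ranked in OVX C5, 819 (4.21%) were at least 8-fold below the median of the other 5 OVX libraries and 0 were at least 8-fold above it. In TAM C35 these counts were 706 of 19376 genes (3.64%) and 2. Levels are given as CPM, a gene's counts relative to the library total scaled with TMM. Comparisons are given with all libraries and with the 22 libraries that remain without OVX C5 and TAM C35. Of these 22, comparisons among OVX, E2 and E4 used only the 5 OVX, 6 E2 and 6 E4 libraries. Comparisons with TAM, or over the 4 groups, used all 22. Separate animal numbers are the only sign that the 6 libraries of a group came from separate mice, so the p-values measure the spread between these libraries.

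Transcripts of the whole synthesis route were counted in all 24 libraries, at far lower levels in OVX C5 and TAM C35. Th, the rate-limiting enzyme, lies on chromosome 7 from 142892752 to 142931128 on the minus strand of GRCm38. Its level was 252 CPM in the lowest, 382 in the median and 442 in the highest of the 5 OVX libraries other than C5. E2 libraries had 191, 387 and 527 CPM, E4 libraries 445, 562 and 731 CPM, and the 5 TAM libraries other than C35 had 452, 478 and 658 CPM, in the same order. The lowest E4 library was thus just above the highest OVX library, whereas E2 spanned the whole OVX range. OVX C5 had 1.34 CPM from 61 counts (95% exact Poisson interval 46.7 to 78.4 counts), 285-fold below the median of the other OVX libraries. TAM C35 had 17.6 CPM from 757 counts, 27.2-fold below the median of the other TAM libraries.

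Ddc, the decarboxylase that follows Th, is on chromosome 11 from 11814101 to 11898144, minus strand. It had 336, 421 and 534 CPM in the lowest, median and highest of the 5 OVX libraries, 222, 400 and 484 in E2, 369, 542 and 611 in E4 and 417, 465 and 617 in the 5 TAM libraries. The ranges of the 4 groups overlapped throughout. OVX C5 had 4.22 CPM (192 counts) and TAM C35 had 26.96 CPM, which were 99.7-fold and 17.3-fold below the medians of their groups.

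Dbh, the vesicular enzyme that makes noradrenaline from dopamine, is on chromosome 2 from 27165233 to 27183200, plus strand. Its levels were 272, 586 and 751 CPM in the 5 OVX libraries, 242, 553 and 871 in E2, 742, 1038 and 1271 in E4 and 728, 826 and 1146 in the 5 TAM libraries, again as lowest, median and highest. The E4 range touched the upper end of the OVX range, with 742 against 751 CPM. OVX C5 had 22 counts (0.483 CPM), and the fold below the other OVX libraries was 1212, with a counting interval from 801 to 1934. Only 1 of the 19474 genes was further down in that library, so Dbh ranked 2, with Th at 15. TAM C35 had 19.6 CPM, 42.1-fold below its group, and Dbh ranked 44 there. Intervals on counts cover counting error only.

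Both transporters followed the enzymes. Slc18a2, the vesicular monoamine transporter VMAT2, is on chromosome 19 from 59260896 to 59296012, plus strand. It had 282, 401 and 538 CPM in the 5 OVX libraries, 204, 383 and 490 in E2, 328, 548 and 574 in E4 and 403, 523 and 567 in the 5 TAM libraries. OVX C5 and TAM C35 had 9.82 and 24.4 CPM, 40.8-fold and 21.5-fold below their groups. Its drop in OVX C5 was smaller than those of the 3 enzymes.

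Slc6a2, the noradrenaline transporter of the outer membrane, is on chromosome 8 from 92960079 to 93001667, plus strand, and gave the most counts of the 9 genes. The 5 OVX libraries had 1270, 2244 and 3083 CPM, E2 1045, 2365 and 2892, E4 2287, 3748 and 4163 and the 5 TAM libraries 2590, 2984 and 3920. The lowest E4 library overlapped both OVX and E2, whereas the E4 median was above the highest library of each. OVX C5 had 11.6 CPM from 530 counts, 193-fold below its group, and TAM C35 had 87.7 CPM, 34.0-fold below.

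The 2 transcription factors were also low in these libraries. Phox2a, a homeodomain factor needed for noradrenergic neurons to form, is on chromosome 7 from 101818313 to 101822726, plus strand. Its levels were 21.7, 45.2 and 46.8 CPM in the 5 OVX libraries, 16.7, 38.3 and 55.4 in E2, 50.8, 62.1 and 91.8 in E4 and 48.4, 53.6 and 71.7 in the 5 TAM libraries. Every E4 library was above every OVX library. OVX C5 had 26 counts (0.571 CPM), 79.1-fold below its group, and TAM C35 had 2.27 CPM, 23.6-fold below.

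Hand2, a bHLH factor of sympathetic and cardiac development, is on chromosome 8 from 57320983 to 57324633, plus strand. The 5 OVX libraries had 58.5, 105 and 120 CPM, E2 51.6, 105 and 146, E4 118, 170 and 211 and the 5 TAM libraries 126, 130 and 182. All 5 TAM libraries were above the 5 OVX libraries, and the lowest E4 library lay just inside the OVX range. OVX C5 kept 8.13 CPM from 370 counts, 12.97-fold below its group, which was the smallest drop of the 9 genes there. TAM C35 had 17.0 CPM, 7.65-fold below.

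Prph, the intermediate filament peripherin of peripheral neurons, is on chromosome 15 from 99055174 to 99058978, plus strand. It had 322, 424 and 496 CPM in the 5 OVX libraries, 200, 399 and 450 in E2, 350, 544 and 632 in E4 and 384, 446 and 601 in the 5 TAM libraries. OVX C5 had 2.07 CPM (94 counts) and TAM C35 18.5 CPM, 205-fold and 24.04-fold below their groups. Prph thus dropped nearly as far as Th in OVX C5, although it has no part in noradrenaline synthesis.

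Chga, chromogranin A of dense-core secretory granules, is on chromosome 12 from 102554969 to 102565028, plus strand. It had 39.7, 70.2 and 100.3 CPM in the 5 OVX libraries, 31.2, 61.9 and 96.0 in E2 and 76.2, 90.2 and 125 in the 5 TAM libraries. E4 libraries had 80.9, 134 and 2209 CPM, and the highest was C38, since the other 5 E4 libraries ended at 166 CPM. OVX C5 had 3.30 CPM from 150 counts and TAM C35 had 12.1 CPM, 21.3-fold and 7.48-fold below their groups.

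**Figure D1:**
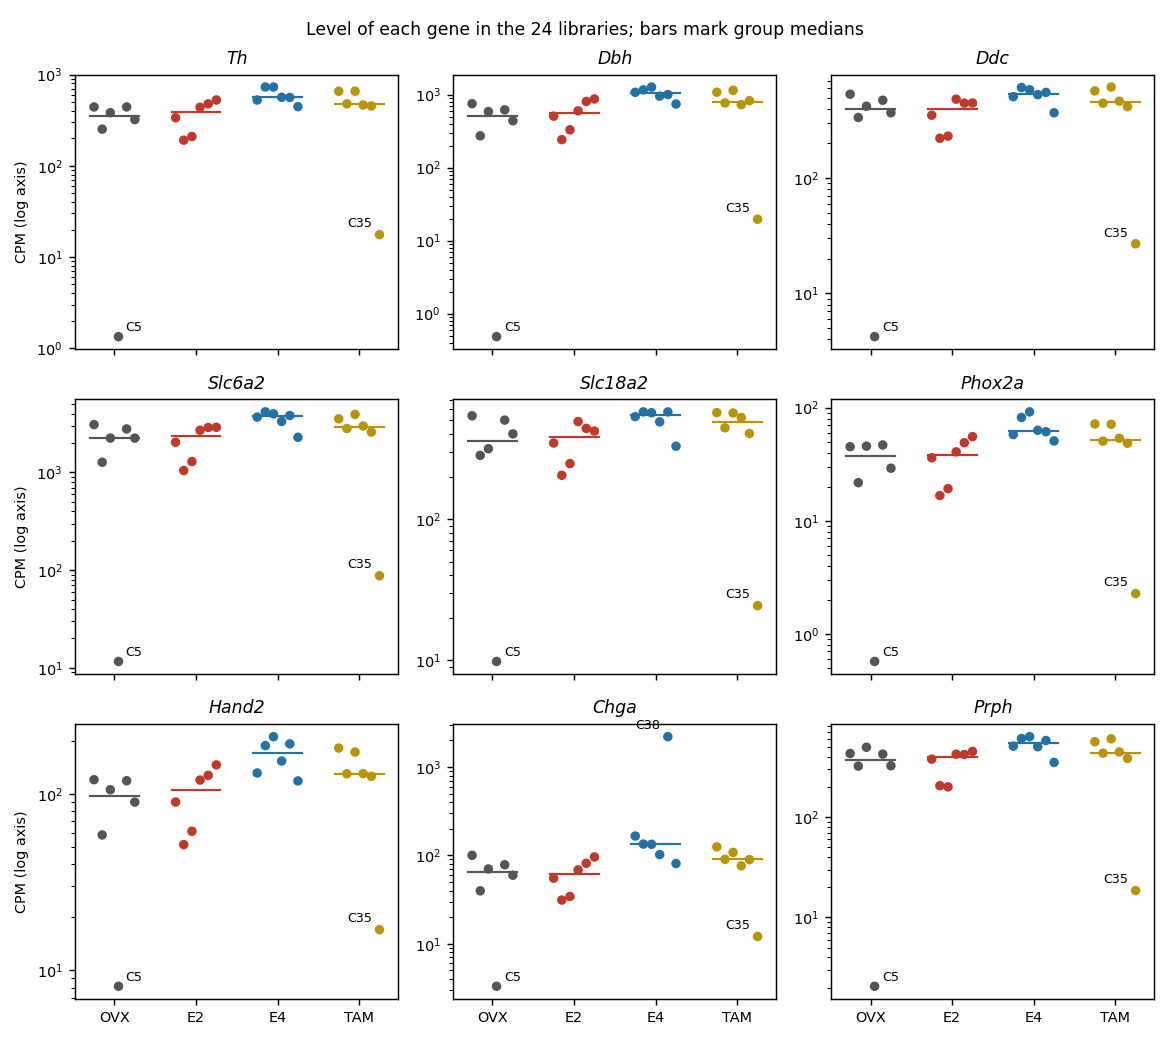
CPM of each of the 9 genes in the 24 libraries by group, on a log axis, with a point for each library and a bar at the group median. OVX C5 and TAM C35 lie below the other 22 libraries for every gene, and E4 C38 stands above all others for Chga at 2209 CPM.

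Both libraries were below the lowest of the 22 others for all 9 genes, by 6.34-fold to 500-fold in OVX C5 and by 2.59-fold to 12.3-fold in TAM C35. The median fold below the group was 99.7 in OVX C5 and 23.6 in TAM C35. The summed level of the 9 genes was 41.6 CPM in OVX C5 and 226 CPM in TAM C35. In the 22 libraries this sum ran from 2208 CPM in E2 C8, 0.221% of that library, to 9548 CPM in E4 C38, 0.956%. By the mean log2 CPM of the 8 genes other than Chga, the lowest of the 22 were E2 C8 (7.30), E2 C9 (7.51) and OVX C3 (7.69), and the highest were E4 C20 (9.21) and E4 C19 (9.16). Libraries of one group thus spread widely, since E2 and OVX hold both low and middling values and the highest belong to E4 and TAM.

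Per kilobase of exon, the median levels over the 22 libraries put Slc6a2 first at 453 CPM per kb and Dbh next at 282. Prph followed at 216, Th at 194, Ddc at 102 and Slc18a2 at 89.1 CPM per kb. Hand2 had 53.8, Chga 31.0 and Phox2a 24.4 CPM per kb. Neighbours in this order kept it in 22 of 22 libraries except for 3 pairs. Dbh was above Prph in 18 libraries, Prph above Th in 20, with a median ratio of 1.13, and Hand2 above Chga in 20. Slc6a2 ranked 110 among all tested genes by level per kilobase, and Phox2a 2855.

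Of the 9 genes, 3 share sequence with a neighbour on the other strand, and the strand setting of the counting was not stated. Over the 22 libraries Hand2os1, antisense to Hand2, had 164 to 318 CPM and Gm29261, antisense to Slc18a2, had 0.784 to 2.58 CPM. Hand2os1 was low with Hand2, at 25.5 CPM in OVX C5 and 37.3 CPM in TAM C35. Inppl1, which overlaps Phox2a, had 69.1 to 94.0 CPM over the 22 libraries and 103 and 99.2 CPM in the 2 low libraries. Without strand, reads of such partners cannot be told apart.

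To see which other transcripts went with the 9 genes in the low libraries, 18 further lists were followed. Of 12 genes that all neurons use, such as the neurofilament Nefl and the synaptic gene Snap25, 12 were at least 8-fold below the group median in OVX C5 and 12 in TAM C35. Their summed level was 44.1 and 214 CPM there, against 1811 to 5871 CPM in the 22 libraries. Of 12 other transcription factors of sympathetic neurons, 11 were at or above 1 CPM in the median of the other libraries, and 7 of these were at least 8-fold lower in each library. The vesicle and secretory list, 15 genes without Chga, had 12 such genes in OVX C5 and 10 in TAM C35. Of 5 subunits of nicotinic receptors, which receive the preganglionic signal, 3 and 4 were at least 8-fold lower, and Chrna3 had 0.92 CPM in OVX C5.

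Glial markers differed far less in these libraries. Of 10 markers of satellite glia and Schwann cells, 1 was at least 8-fold lower in each low library, the glial fatty acid binding protein Fabp7. Their summed level was 1380 CPM in OVX C5 and 2984 CPM in TAM C35, against 581 to 3858 CPM in the 22 libraries. Their mean log2 CPM was 5.34 in OVX C5, below the other OVX libraries at 5.63 to 6.43, and 6.14 in TAM C35, where the other TAM libraries had 6.11 to 6.61. Markers of smooth muscle, endothelium, fibroblasts, adipocytes, B cells and skeletal muscle had 0 genes at least 8-fold lower in either library. The summed level of 8 smooth muscle markers was 9367 CPM in TAM C35, against 2760 to 5478 CPM in the 22 libraries, and 4561 CPM in OVX C5. Of 8 markers of glomus cells, the oxygen sensors of the carotid body that also make catecholamines, 1 was at least 8-fold lower in OVX C5 and 0 in TAM C35. The part of any of these cell types in the levels of the 9 genes was not tested.

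**Figure D2:**
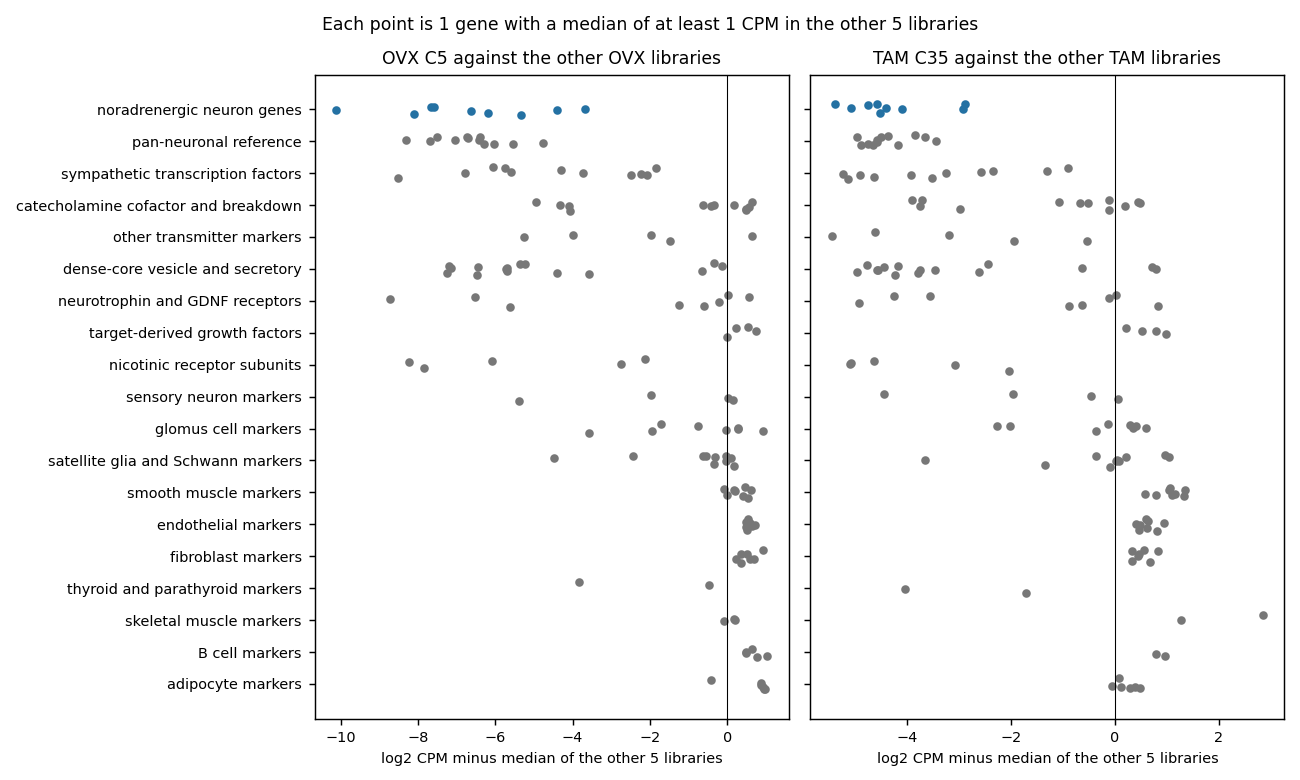
Log2 difference of each expressed gene from the median of the other libraries of its group, in OVX C5 and in TAM C35, with a row of points for each gene list. The 9 genes and the 12 pan-neuronal genes lie far below 0 in both libraries, whereas the glial, smooth muscle and fibroblast lists scatter around or above 0.

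Markers of chromaffin cells and of other neurons were followed too. Over the 22 libraries, Pnmt, which makes adrenaline in chromaffin cells, reached at most 0.53 CPM, and Chat, which makes acetylcholine, at most 0.21 CPM. The sensory genes Prdm12 and Mrgprd each reached at most 0.10 CPM. These 4 genes were thus near 0, whereas their lists as a whole were not. Of 10 sensory neuron markers, 4 were at or above 1 CPM in the median of the other OVX libraries, with a summed level of 76.6 to 303 CPM over the 22 libraries, 10.9 CPM in OVX C5 and 19.1 CPM in TAM C35. Of 13 markers of other transmitters, 5 were at or above 1 CPM, with a summed level of 14.5 to 43.8 CPM. The part of such neurons in the levels of the 9 genes was not tested.

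The uninjured arteries were sequenced to compare E2 and E4 with vehicle, and the 9 genes are read here within the test across all genes. With all 18 OVX, E2 and E4 libraries, Chga was the 1 gene of the 9 called higher in E4 than in OVX, the call being an adjusted p below 0.05 with a log2 fold change beyond 1 in size. The background was 0.885% of 24646 genes called higher. Its log2 fold change was 3.01 (SE 0.84, adjusted p = 0.0193 from edgeR), and this rests on E4 C38. Without that library it was 1.07 (edgeR adjusted p = 0.140). The other 8 genes had log2 differences from 0.56 for Ddc to 1.22 for Dbh, with SE from 0.41 to 0.71 and edgeR adjusted p from 0.0914 to 0.473. OVX C5 lies in the control group of this comparison, and its low values enlarge both the difference and the spread.

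Between E4 and E2 no low library is involved, although OVX C5 still enters the shared estimate of spread. Chga was again the 1 gene called higher, against a background of 0.191%, with a log2 fold change of 2.95 (SE 0.84, edgeR adjusted p = 0.0331). The other 8 genes had differences from 0.51 to 0.91 with edgeR adjusted p from 0.229 to 0.519. The Chga call was lost without E4 C38, and also without E2 C6, E2 C8, E2 C9 or E2 C26. With OVX C5 and E4 C38 both left out, Chga had 1.01 (edgeR adjusted p = 0.0275). Between E2 and OVX 0 of the 9 genes were called, against 1.23% of all genes in either direction. The differences of the 9 were 0.03 to 0.33 on the log2 scale, with edgeR adjusted p of 0.870 or more. The OVX libraries are shared by all comparisons with OVX, so these are not independent of each other.

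Without OVX C5 the spread was smaller and more of the genes passed the test in E4. This fit holds the 5 OVX, 6 E2 and 6 E4 libraries of the 22 and no TAM library. Counted by adjusted p alone, 4 of the 9 genes were higher in E4 than in OVX, against 9.09% of all genes. On the log2 scale, Dbh was higher by 0.95 (SE 0.29, edgeR adjusted p = 0.0315), Phox2a by 0.84 (SE 0.28, 0.0433), Hand2 by 0.75 (SE 0.25, 0.0442) and Chga by 2.76 (SE 0.77, 0.0220). Th had 0.69 (edgeR adjusted p = 0.0524), Slc6a2 0.61 (0.110), Prph 0.41 (0.180), Ddc 0.30 (0.286) and Slc18a2 0.32 (0.306). Differences between these genes were not tested, and Th lay just outside the threshold. Except for Chga, each was under the fold change of the stricter rule.

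Against E2, 7 of the 9 genes were higher in E4 by adjusted p alone in the same fit, against 10.1% of all genes. Phox2a was higher by 0.91 (edgeR adjusted p = 0.0254), Dbh by 0.89 (0.0318), Hand2 by 0.74 (0.0348), Slc6a2 by 0.73 (0.0463), Th by 0.71 (0.0354), Prph by 0.61 (0.0393) and Chga by 2.95 (0.0128). Ddc, with 0.53 (edgeR adjusted p = 0.0507), and Slc18a2, with 0.51 (0.0832), did not pass. A fit of the E2 and E4 libraries alone, which holds no low library, also gave 7 of 9, against 11.2% of all genes, with edgeR adjusted p from 0.0235 to 0.0710. Between E2 and OVX 0 of the 9 passed in the 22 libraries, against 5.21% of all genes, with differences from -0.23 to 0.07.

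**Figure D3:**
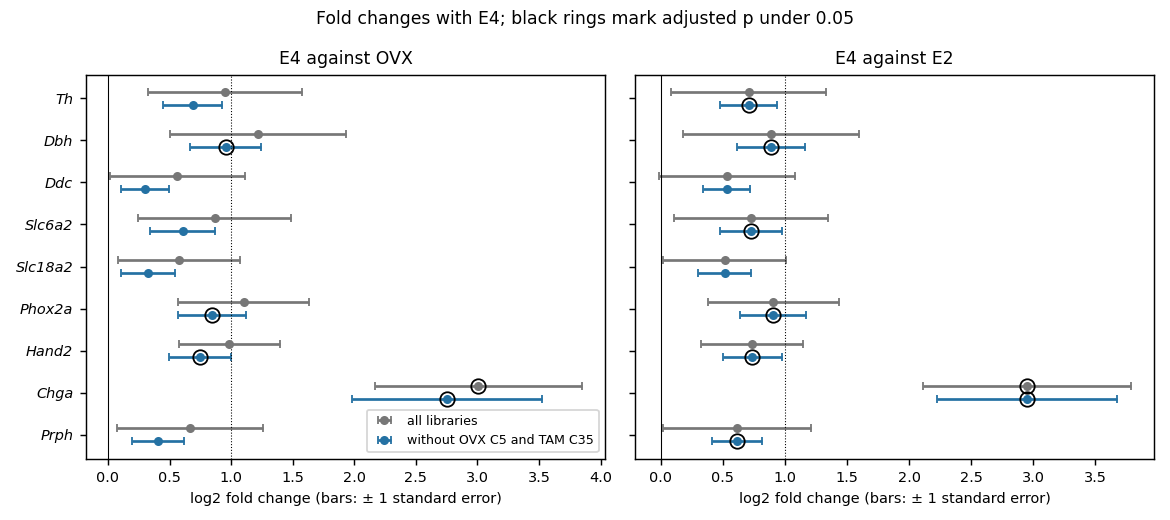
Log2 fold change of each gene, with its standard error as a bar, for E4 against OVX and E4 against E2. Values are shown with all libraries and without OVX C5 and TAM C35, of which only OVX C5 enters these fits. Black rings mark an edgeR adjusted p under 0.05. E4 values are above 0 against both OVX and E2, and the errors are shorter without OVX C5.

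These counts moved with single libraries. Each of the 5 OVX, 6 E2 and 6 E4 libraries among the 22 was taken out of that fit in turn. The count in E4 against OVX was 0 without OVX C3 and 1 without OVX C25, E4 C19, E4 C20 or E4 C38. It was 2 without OVX C4, E2 C6 or E4 C36. It was at most 5, and the median difference of the 9 genes ran from 0.59 to 0.76. In E4 against E2 the count was 1 without E4 C19 or E4 C20, 2 without E2 C6, E2 C8 or E2 C9 and 3 without E4 C38. It reached 9 without E2 C26 or E4 C39, with medians from 0.60 to 0.85. E2 C8, E2 C9 and OVX C3 are the lowest of the 22 libraries for these genes and E4 C19 and E4 C20 the highest. In E2 against OVX the count was 0 in every such fit. The share of all genes higher moved too, from 5.13% without OVX C3 to 12.1% without E2 C8 in E4 against OVX, and from 3.85% without E4 C20 to 14.4% without E2 C29 in E4 against E2.

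The animal numbers form a first series up to 20 and a second from 24, which the labels do not call a batch. In the first series, E2 libraries had 191, 209 and 336 CPM of Th and E4 libraries 526, 730 and 731 CPM. In the second, E2 libraries had 439, 477 and 527 CPM and E4 libraries 445, 561 and 563 CPM. The 3 E2 libraries of the first series were thus all below the 3 of the second. Over the 9 genes, E4 against E2 was 1.07 to 1.85 on the log2 scale in the first series. In the second it was 0.06 to 0.29 for 8 genes and 3.30 for Chga, whose series holds E4 C38.

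E4 against OVX was 0.80 to 1.53 in the first series, with OVX C5 in the fit, and 0.04 to 0.77 in the second for 8 genes, with 3.54 for Chga. None of the 9 passed the test within either series, with 4 OVX and 3 E4 libraries in the first and 2 and 3 in the second. The difference between the series in E4 against E2 was itself tested. Without OVX C5 it was -1.01 to -1.46 for the 8 genes other than Chga, with edgeR adjusted p for all 9 from 0.0976 to 0.517, and 0 of all genes passed. At an unadjusted edgeR p under 0.05 there were 4917 of 24830 genes. The 8 genes other than Chga were among them, with unadjusted edgeR p from 0.000952 for Th to 0.00846 for Slc18a2. The adjusted p of 0.517 belonged to Chga. With the series as a covariate in the 22 libraries, 4 genes passed in E4 against OVX, where 8.87% of all genes were higher, and 8 in E4 against E2, where 11.2% were.

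Tamoxifen was compared in the fit of all 24 libraries. Of the 9 genes, 0 were called against OVX (background 0.308%), 0 against E2 (1.65%) and 0 against E4 (0.196%). In the 22 libraries TAM was above OVX by 0.24 for Ddc to 0.77 for Dbh, with edgeR adjusted p from 0.131 to 0.696, and 0 of 9 passed, against 1.03% of all genes. TAM was above E2 by 0.47 to 0.71, with edgeR adjusted p from 0.0683 to 0.496, and 0 of 9 passed, against 13.2%. This difference moved with the number series, and in the first alone it was 0.97 to 1.46. In the second, without TAM C35, the TAM mean was below the E2 mean for Th (458 against 481 CPM), Ddc, Slc6a2, Hand2 and Prph. It was above the E2 mean for Dbh, Slc18a2, Phox2a and Chga. In the 22 libraries TAM against E4 had differences from -2.28 for Chga to -0.04 for Slc18a2, and 0 of 9 passed, against 0.433%. For each of the 9 genes but Chga, the difference of TAM from E4 was thus smaller in size there than those from OVX or E2.

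Over the 4 groups at once, 1 of the 9 genes, Chga, passed with all 24 libraries (edgeR adjusted p = 0.00711), where 21.0% of all genes passed. In the 22 libraries 5 of 9 passed, against 30.1% of all genes. These were Chga (edgeR adjusted p = 0.00256), Dbh (0.0157), Phox2a (0.0164), Hand2 (0.0227) and Th (0.0257). Slc6a2 had an adjusted p of 0.0508, Prph of 0.0626, Ddc of 0.0838 and Slc18a2 of 0.117.

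The genes were next set against the pan-neuronal genes of the same library, as the difference of a gene's log2 CPM from the mean log2 CPM of the 12 pan-neuronal genes. That mean was 6.98 to 7.998 in the 5 OVX libraries, 6.57 to 7.90 in E2, 7.64 to 8.38 in E4 and 7.78 to 8.33 in the 5 TAM libraries. It was 1.07 in OVX C5 and 3.56 in TAM C35. The pan-neuronal level was thus also higher in most E4 libraries than in E2, and it moves with the 9 genes.

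On this relative scale Th varied little, from 0.79 to 0.996 in OVX, 0.92 to 1.14 in E2, 0.84 to 1.16 in E4 and 0.96 to 1.06 in TAM. Slc6a2 ran from 3.33 to 3.73 over the 22 libraries. Dbh varied more between groups. It had 1.10 to 1.55 in OVX, 1.35 to 1.86 in E2, 1.68 to 1.96 in E4 and 1.61 to 1.91 in TAM. Neither E4 nor TAM overlapped OVX there. With the pan-neuronal mean as a covariate in the 22 libraries, Dbh in E4 against OVX was 0.35 (SE 0.10, edgeR adjusted p = 0.0410). It was the 1 gene of the 9 that passed there by adjusted p alone, against 3.73% of all genes. With all libraries its value was 0.24 (edgeR adjusted p = 0.176). Dbh against OVX was 0.25 in E2 (edgeR adjusted p = 0.0854) and 0.30 in TAM (0.146) in the 22 libraries. With all libraries it was 0.33 in E2 (edgeR adjusted p = 0.0749) and 0.40 in TAM (0.0647), so the difference was not particular to E4. In E4 against OVX in the 22 libraries, the other 8 genes had edgeR adjusted p from 0.144 to 0.865. Chga was at 1.83, Phox2a at 0.24, Hand2 at 0.19, Th at 0.16 and Slc6a2 at 0.026. Prph was at -0.068, Ddc at -0.14 and Slc18a2 at -0.15. Against E2, 0 of the 9 passed with the covariate, against 0.177% of all genes, with edgeR adjusted p from 0.441 to 0.941, so that the 7 that passed without it all missed. Chga was at 1.77 (SE 0.88) there, Dbh at 0.10, and Ddc, Slc6a2 and Slc18a2 were below 0. With all libraries and the covariate, Chga was called against E2 (2.41, edgeR adjusted p = 0.0221) and against OVX (2.26, edgeR adjusted p = 0.0448). The covariate is itself measured in these libraries and moves with the group.

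In OVX C5 most of the 9 genes lay away from their usual ratio to the pan-neuronal genes. Dbh was at -1.99 there, against a median of 1.42 in the other OVX libraries, and Th at -0.60 against 0.92. Slc6a2 was at 2.48 and Prph at 0.01, also below their groups. Hand2 was at 1.96, where the 22 libraries ran from -1.11 to -0.66, and Slc18a2 at 2.23, where they ran from 0.64 to 1.17. Chga was at 0.67, against a median of -1.56 in the other OVX libraries, and Phox2a at -1.77 against -2.50. Ddc, at 1.02, was within 0.03 of its group's median. In TAM C35 the genes other than Ddc lay nearer to the median of their group, with Dbh at 0.73, Th at 0.57, Slc6a2 at 2.89 and Hand2 at 0.53. Ddc lay farther from it, at 1.19 against 0.94. As values that chose the genes, these are a description: Dbh, Th, Slc6a2 and Prph were lower in OVX C5 relative to the pan-neuronal mean than in the rest of the group, and Hand2, Slc18a2, Chga and Phox2a higher.

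**Figure D4:**
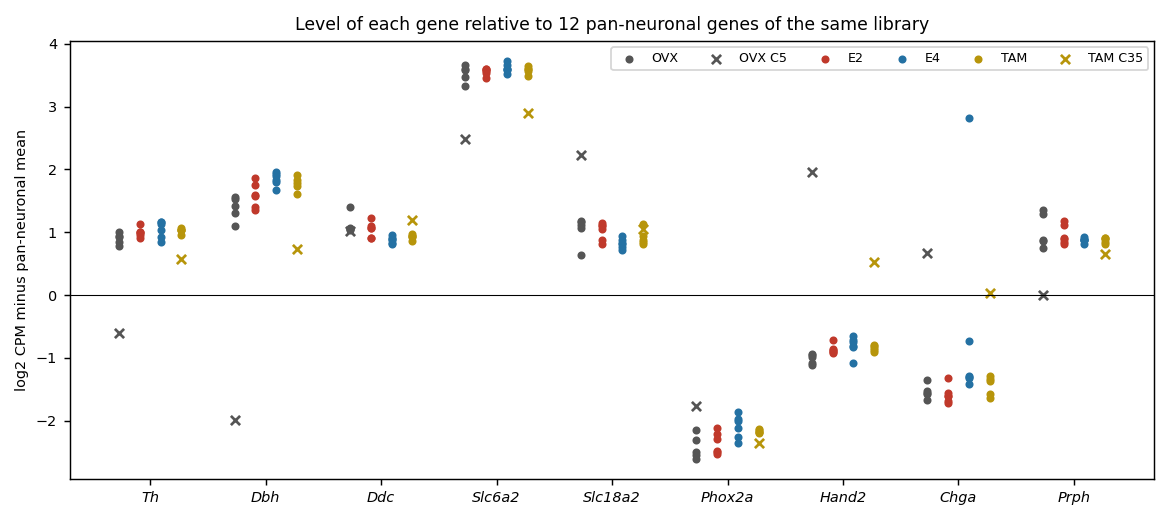
Log2 CPM of each gene minus the mean log2 CPM of 12 pan-neuronal genes in the same library, by group, with a point for each library. Dbh in OVX C5 falls to -1.99 while Hand2 stands at 1.96. Dbh in E4, and in TAM other than C35, lies above Dbh in OVX.

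Chga in E4 C38 went with genes of the parathyroid gland, an endocrine gland of the neck whose chief cells also store chromogranin A. Pth, the parathyroid hormone, had 2914 CPM in E4 C38, 107 CPM in E4 C16 and 16.3 CPM in OVX C2, and 0 counts in the other 21 libraries. Chga was 2209 CPM in E4 C38, 166 CPM in E4 C16 and 100.3 CPM in OVX C2, each the highest of its group or next to it. Gcm2, the factor that forms the parathyroid, and Casr, the calcium-sensing receptor, each had 35.6 CPM in E4 C38. The related granule gene Chgb had 227 CPM there, inside the range of the other E4 libraries, 153 to 264 CPM. The part of parathyroid tissue in the Chga result was not tested. E4 C38 also has the smallest of the 24 library totals.

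Without OVX C5, TAM C35 and E4 C38, Chga was higher in E4 than in E2 by 1.01 (SE 0.28, edgeR adjusted p = 0.0275), just past the fold threshold, in a fit that keeps E4 C16, the other E4 library with Pth counts. Against OVX it had a difference of 0.82 (SE 0.29, edgeR adjusted p = 0.0625). This fit holds 5 OVX, 6 E2 and 5 E4 libraries. In it 1 of the 9 genes, Dbh, passed by edgeR adjusted p alone against OVX (0.0439), where 8.36% of all genes were higher. Against E2 there were 3, Dbh (0.0486), Phox2a (0.0376) and Chga, where 6.76% of all genes were higher. Leaving out this library, chosen for Chga, thus lowered both counts.

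**Figure D5:**
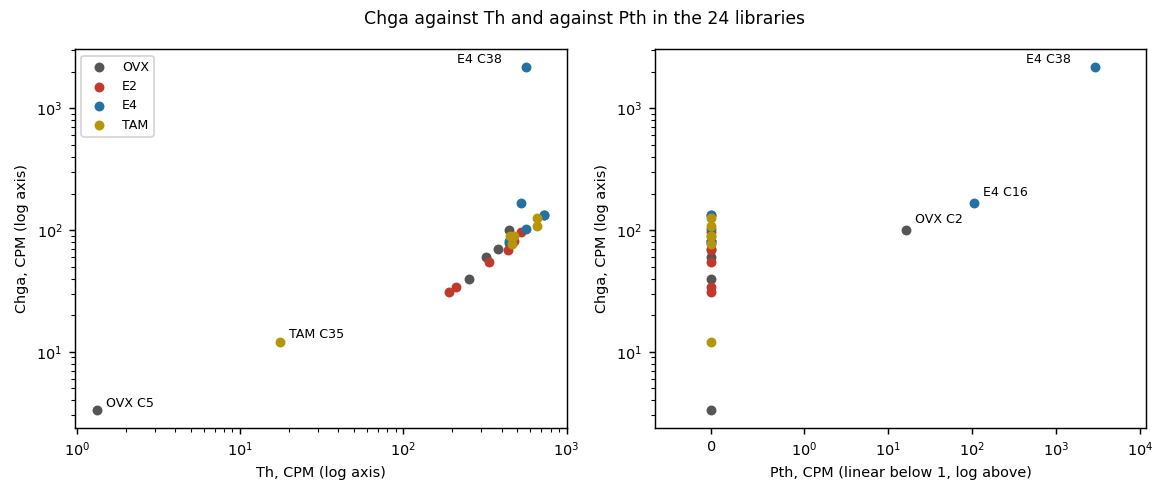
CPM of Chga against CPM of Th, and against CPM of Pth, with a point for each of the 24 libraries. Axes are on a log scale, except that the Pth axis is linear below 1 CPM. E4 C38 is the highest for Chga and Pth, at 2209 and 2914 CPM, and Pth is at 0 counts in 21 libraries.

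The wider network of the sympathetic neuron was read from the same lists. Of 12 other sympathetic transcription factors, 1 was called higher in E4 than in OVX with all libraries, Gata3, which maintains noradrenergic neurons (log2 fold change 1.22, SE 0.33, edgeR adjusted p = 0.0168). In the 22 libraries 6 of 12 were higher by adjusted p alone, with a median difference of 0.61 over the list, and Gata3 was higher by 1.003. Against E2, 7 of 12 were higher, with a median of 0.68. Of the 12 pan-neuronal genes, 1 was higher against OVX and 7 against E2, with medians of 0.47 and 0.65. These counts stand beside the backgrounds of 9.09% and 10.1% given above.

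Of 15 vesicle and secretory genes, Vgf, a secreted neuropeptide precursor, was called higher in E4 than in OVX with all libraries (log2 fold change 1.79, SE 0.57, edgeR adjusted p = 0.0346) and in the 22 libraries (1.52). By adjusted p alone 1 of 15 was higher against OVX and 8 of 15 against E2 in the 22 libraries. Of 12 genes for the cofactor of Th and for breakdown of catecholamines, 1 and 3 were higher, and of 5 nicotinic subunits 1 and 3. Of 8 receptors for neurotrophins and the GDNF family, 3 were higher and 1 lower against OVX, and 2 higher against E2, where 9.09% of all genes were higher and 9.07% lower against OVX and 10.1% higher against E2.

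Of 6 growth factors that target tissues release to sympathetic neurons, 2 were lower in E4 than in OVX in the 22 libraries by adjusted p alone, against 9.07% of all genes. With all libraries, where 1.63% of all genes were called lower, Artn, the artemin that guides sympathetic axons along vessels, fell by 1.42 (SE 0.25, edgeR adjusted p = 0.00217) and Ntf3, neurotrophin 3, fell by 1.004 (SE 0.20, edgeR adjusted p = 0.00375). Ntf3 was at -0.999 in the 22 libraries, just inside the fold threshold. These ligands and the 9 neuronal genes thus had opposite signs in E4. In OVX C5 and TAM C35, 0 of the 4 growth factors at or above 1 CPM were at least 8-fold lower. Of 10 glial markers, 1 was higher in E4 than in OVX, where 9.09% of all genes were, and 5 than in E2, where 10.1% were. Foxd3, a factor of neural crest and glia, was called higher with all libraries in both, by 1.07 (edgeR adjusted p = 0.0154) and 1.36 (0.00786). The part of glia or of ganglion tissue in the E4 values was not tested.

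Levels of the 8 genes other than Chga went together from library to library. Over the 22 libraries, Pearson's r of log2 CPM for the 28 pairs among them was 0.864 to 0.989, highest for Th with Phox2a. The 8 pairs with Chga had r from 0.602 to 0.697, and from 0.878 to 0.964 in the 21 libraries without E4 C38. The libraries share tissue, kit and depth range, and these values are given without a test.

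Over all 24 libraries the genes whose log2 CPM was most like the mean of the 9 were March4, Svop, Celf6, Diras1, Fam163a, Slc10a4, Ppp2r2c, Atp2b3, Ap3b2 and Sv2c, with r from 0.997 to 0.998. March4 had 10.4 to 45.1 CPM in the 22 libraries, 0.154 CPM in OVX C5 and 1.25 CPM in TAM C35. The low libraries thus enter this likeness, and how far it rests on them was not tested. In the 22 libraries alone they were Atp6v1b2, Lrrc3, Syn2, Pcyt1b, Syp, Kif3c, Hpcal4, Slc2a3, Diras1 and Celf4, with r from 0.983 to 0.990, and 1 gene, Diras1, was in both lists. Syn2 and Syp encode the synaptic vesicle proteins synapsin II and synaptophysin. The lowest r over 24 libraries belonged to Tspo (-0.888), Ostf1 (-0.863), Mgmt (-0.856), Stap2 (-0.845) and Tor2a (-0.839). Tspo had 108 to 181 CPM in the 22 libraries, 246 CPM in OVX C5 and 194 CPM in TAM C35.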

How the data were processed

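RNA was sequenced from 24 carotid artery samples, 6 per group, with a stranded kit. The authors deposited a table of unnormalized estimated counts for each library. According to the labels, reads were demultiplexed with bcl2fastq 2.17, trimmed with Trim Galore, aligned to mm10 with Bowtie2 and counted with featureCounts, and the strand setting is not given in the sources used here. Values with decimals were rounded. Names and coordinates come from GENCODE M21 on GRCm38, which holds 55240 of the 55421 genes.

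Testing used edgeR 4.0.16 (quasi-likelihood) under R 4.3.3 after TMM scaling and filterByExpr, and p-values were adjusted by Benjamini-Hochberg over all genes tested. OVX, E2 and E4 entered 1 fit of 18 libraries and TAM a fit of 24. Results for the 22 libraries repeat both fits without OVX C5 and TAM C35, so those among OVX, E2 and E4 hold no TAM library. A call needs an adjusted p below 0.05 and, as in the study's methods, a log2 fold change beyond 1 in size. SE is the log2 fold change divided by the root of F. Log2 CPM uses a prior count of 2. The procedure was tested on simulated counts with the same dispersion for every gene and no outlying library, so that test does not cover fits with OVX C5 or TAM C35.

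All 9 genes were named, with the genes most like them, and of each list any gene called, up to 4 per comparison. The genes and lists were chosen with earlier results of these data known. Alternatives covered tool, scaling, filter, libraries, number series and a pan-neuronal covariate.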

Additional observations from a re-analysis of the deposited data

Results flagged for a closer look

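Each gene was checked in each group of 6 libraries for a library with a wide gap to its nearest neighbour, above Dixon's 95% critical value for its share of the group's range. Chance alone gives such a gap in about 1 of 20 groups. OVX C5 and TAM C35 were the libraries whose low counts chose the genes, so their gaps were fixed by that choice and are no test.

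OVX C5 stood below the rest of its group for all 9 genes. It had 1.34 CPM of Th, 0.483 of Dbh, 4.22 of Ddc, 11.6 of Slc6a2, 9.82 of Slc18a2, 0.571 of Phox2a, 8.13 of Hand2, 3.30 of Chga and 2.07 of Prph. TAM C35 stood below its group for the same 9 genes, with 17.6 CPM of Th, 19.6 of Dbh, 26.96 of Ddc, 87.7 of Slc6a2, 24.4 of Slc18a2, 2.27 of Phox2a, 17.0 of Hand2, 12.1 of Chga and 18.5 of Prph.

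E4 C38 stood above its group for Chga, at 2209 CPM. E4 C39 stood below the other 5 E4 libraries for Ddc, at 369 CPM, and for Slc18a2, at 328 CPM. E4 C39 was the lowest E4 library for the other 7 genes too, with a gap just short of the criterion for Slc6a2.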

How the results depend on the processing

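Of 265 counts of called genes under other settings, 243 stayed within 1.5 times the reported count. Of 610 fold changes of single genes 580 kept direction and side of the threshold. The reported count was 0 for E2 against OVX and each TAM comparison, so 0 under another setting was counted as unchanged there. Many settings left out only 1 library, so these shares are high in part by construction. With all libraries, Chga was the 1 gene called in E4 against OVX, in E4 against E2 and over the 4 groups. In E4 against OVX the count was 0 in the first number series alone, in the second alone, with voom, with the pan-neuronal covariate in the 22 libraries, and without OVX C5, TAM C35 and E4 C38 (added after seeing the data), and 4 with the fold threshold dropped in the 22 libraries, 2 choices together (also added). In E4 against E2 it was 0 in each series and with that covariate in the 22 libraries, and 7 with the fold threshold dropped in the 22 libraries. With all libraries, dropping the threshold left the count at 1 in both. Over the 4 groups it was 0 in each series, 5 in the 22 libraries and in the 21 libraries, and 6 with the series as covariate in the 22 libraries, where it was 1 with that covariate in all 24. Leaving out 1 library gave 0 to 1 in each of the 3, with 0 without E4 C38, and in E4 against E2 also without E2 C6, E2 C8, E2 C9 or E2 C26. Of the E4 differences from OVX and E2, the signs that turned, 15 in all, turned with the pan-neuronal covariate. With all libraries E4 against OVX became -0.24 for Ddc, -0.12 for Slc18a2 and -0.22 for Prph, and E4 against E2 -0.11 for Th, -0.10 for Dbh, -0.17 for Ddc, -0.059 for Slc6a2, -0.060 for Slc18a2 and -0.19 for Prph. In the 22 libraries these were -0.14 for Ddc, -0.15 for Slc18a2 and -0.068 for Prph against OVX, and -0.022 for Ddc, -0.026 for Slc6a2 and -0.10 for Slc18a2 against E2. In the other comparisons, with no gene called, E2 against OVX became -0.42 to -0.12 in the first series, and in the second TAM became -0.51 to -0.011 against OVX and -0.62 to -0.46 against E2, for all 9 genes, with TAM C35 in that series. Without TAM C35 the second-series TAM mean was above the OVX mean for each of the 9 genes (Th 458 against 381 CPM). It stayed below the E2 mean for Th (458 against 481 CPM), Ddc, Slc6a2, Hand2 and Prph. For Dbh, Slc18a2, Phox2a and Chga it was above the E2 mean. Signs of E2 against OVX also turned for 7 genes in the 22 libraries. The cause of the other turns was not tested. DESeq2 gave no adjusted p for Chga and called Hand2 in E4 against OVX (1.01, adjusted p = 0.0456) and 0 of the other 8 genes in E4 against E2. No paired analysis was possible because the groups share no animal numbers.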

Other observations

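Other lists held called genes in the same fits, by edgeR's adjusted p with all libraries. Vwf, the von Willebrand factor of endothelium, was higher in E2 (log2 fold change 1.21) and in E4 (1.27) than in OVX. The B cell genes Ms4a1, Pax5 and Cd79b had log2 fold changes of -2.57, -2.12 and -1.98 in E4 against OVX, and Ms4a1 and Cd79b of -1.79 and -1.51 in TAM. Lep, the adipocyte hormone leptin, had -1.33 in E4 and -1.49 in TAM against OVX, and -1.87 and -2.02 against E2. Ucp1, of brown adipocytes, fell by 1.09 in E4 against OVX. The glomus cell list gene Hif3a was higher in E4 than in E2 (1.26), and in TAM than in OVX (1.12) and E2 (1.39). Its TAM difference from OVX had an adjusted p of 0.0845 by edgeR in the 22 libraries. Collagen Col1a1 was higher in TAM than in E2 (1.05) and E4 (1.33), and Col1a2 than in E4 (1.15). Ucp1 in E4 against OVX, at -0.89, and in TAM against E2 Col1a1, at 0.99, and Tshr, at -0.88, were inside the fold threshold in the 22 libraries.

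Thyroglobulin, Tg, was higher in E4 (2.96) and TAM (3.31) than in E2, where E4 C38 had 8.35 CPM and TAM C33 10.7 CPM and each other library was under 1 CPM. Tshr fell by 1.06 in TAM against E2. Pnmt was higher in TAM than in E2 (2.12), at levels under 1 CPM in every library.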
